A study of Mus musculus with 34 samples.

Results

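The transcriptome of WT mouse liver 6 hours after partial hepatectomy (PHx) was compared with that of WT liver at 0 hours, in 12 of the 34 bulk RNA-seq libraries of the series. The members were the libraries whose labels give the genotype WT and either 0 h or 6 h, which left 6 livers at each time point. The paper's figure legends give 5 livers per group at 6 h and 5 WT livers at 24 h, where the labels give 6 and 4 WT livers. The labels were followed, and which library accounts for the mismatch is not known. WT mice carried Sirt1 with exon 4 between loxP sites and lacked the Villin-Cre transgene, which in the other genotype, SIRT1intKO, deletes Sirt1 in gut epithelial cells, so that the liver itself keeps the gene. All were male, on a C57/Bl6 background and 8 to 12 weeks of age. PHx removed 70% of the liver, as the left lateral and median lobes. Livers at 0 h were untreated and no sham-operated animals were included, so anesthesia, surgery, altered feeding and loss of tissue cannot be told apart. The labels count the 0 h libraries separately from those after PHx, and if the 2 sets were handled differently, this cannot be told apart from PHx either. The clock hour of collection is not given in the sources used here, so time of day and PHx cannot be told apart for any gene.

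After loss of liver mass, resident cells release tumor necrosis factor and interleukin-6, and hepatocytes respond through NF-kB and STAT3. This priming step moves quiescent hepatocytes from G0 into G1, and growth factors that act on EGFR and MET then carry them into DNA synthesis. The remaining liver has to go on secreting plasma proteins, clearing ammonia and supplying glucose meanwhile, and fat from peripheral stores accumulates in it for a time. In mice, the 6 h liver falls in the priming phase.

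Total counts of the 12 livers ranged from 14892122 to 18400084, with a median of 16647421. Labelled liver tissue was checked against 11 hepatocyte markers, all of which were expressed. Albumin (Alb), the main plasma protein, was at 15973 to 49884 CPM (counts scaled to the library's total) over the livers. The first principal component of log2 CPM carried 52.6% of the variance and separated the time points, with 0 h livers between -64.0 and -41.1 and 6 h livers between 44.0 and 67.5. Within groups, WT 0 h replicate 2 and WT 6 h replicate 6 stood apart, with correlations of 0.973 and 0.970 with the mean of the other livers of their group, where the next lowest were 0.985 and 0.979. Where a call was lost, or a called fold or a count moved by over 1.5 times, without either or both, the value without them is given.

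In WT liver at 6 h, 1074 genes were higher and 1258 lower than at 0 h, of 14980 genes tested. A gene was called at an adjusted p (Benjamini-Hochberg, edgeR quasi-likelihood test) under 0.05 and a log2 fold change beyond 1 in either direction, so that 15.6% of all genes were called, 7.17% higher and 8.4% lower. Counts in gene lists, cell type markers included, are to be read against these shares. The 2 groups of 6 livers did not overlap for 3607 genes, or 24.1%. Without the 2 libraries that stood apart, 1138 genes were higher and 1229 lower. The median log2 fold change of all genes was 0.02. Throughout, values per liver are CPM after TMM scaling, changes are log2 fold changes of 6 h minus 0 h with their standard error (SE), and groups are n = 6 unless stated. In bulk tissue, fewer cells of a type and less RNA per cell cannot be told apart.

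**Figure D1:**
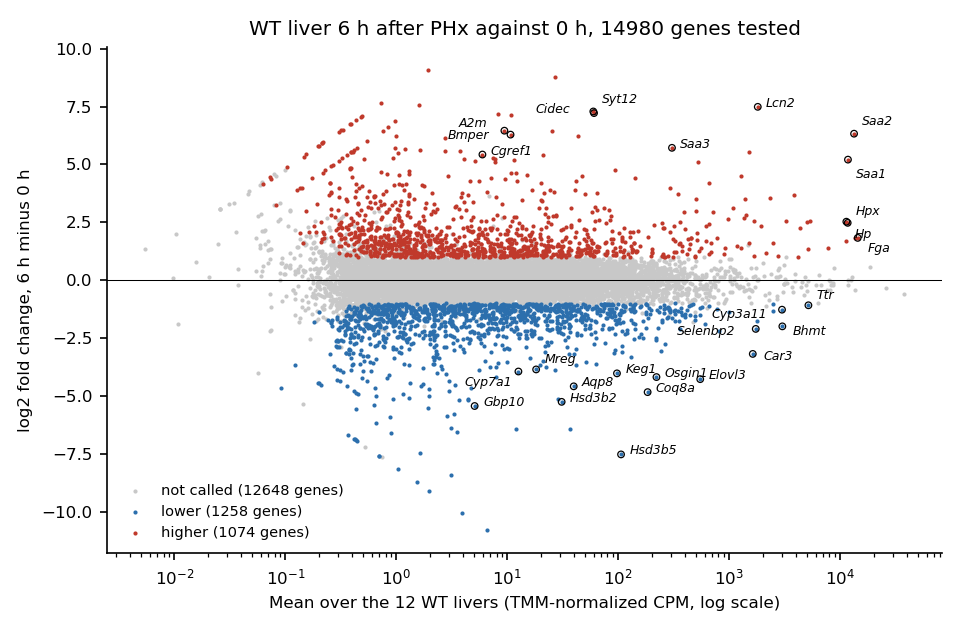
Each point is 1 of 14980 tested genes, with its mean over the 12 WT livers (CPM, log axis) against its log2 fold change at 6 h against 0 h. Red points were called higher (1074) and blue points called lower (1258), and ringed genes with names are among those with the largest changes in fold or in CPM by the rule of the methods. Saa1, Saa2, Hp, Hpx and Fga combine very high abundance with a rise, and Hsd3b5 lies lowest of the ringed genes at -7.52.

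Among genes with a symbol other than a predicted one, a mean of at least 5 CPM and groups that did not overlap, the 10 largest rises included those of Lcn2, Syt12, Cidec, A2m, Saa2, Bmper, Saa3, Cgref1 and Saa1. The 10 largest falls were those of Hsd3b5, Gbp10, Hsd3b2, Coq8a, Aqp8, Elovl3, Osgin1, Keg1, Cyp7a1 and Mreg. By change in mean CPM the leading genes were Saa2, Saa1, Hpx, Fga and Hp upward, and Ttr, Bhmt, Car3, Cyp3a11 and Selenbp2 downward. All of these are described with their groups below.

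**Figure D2:**
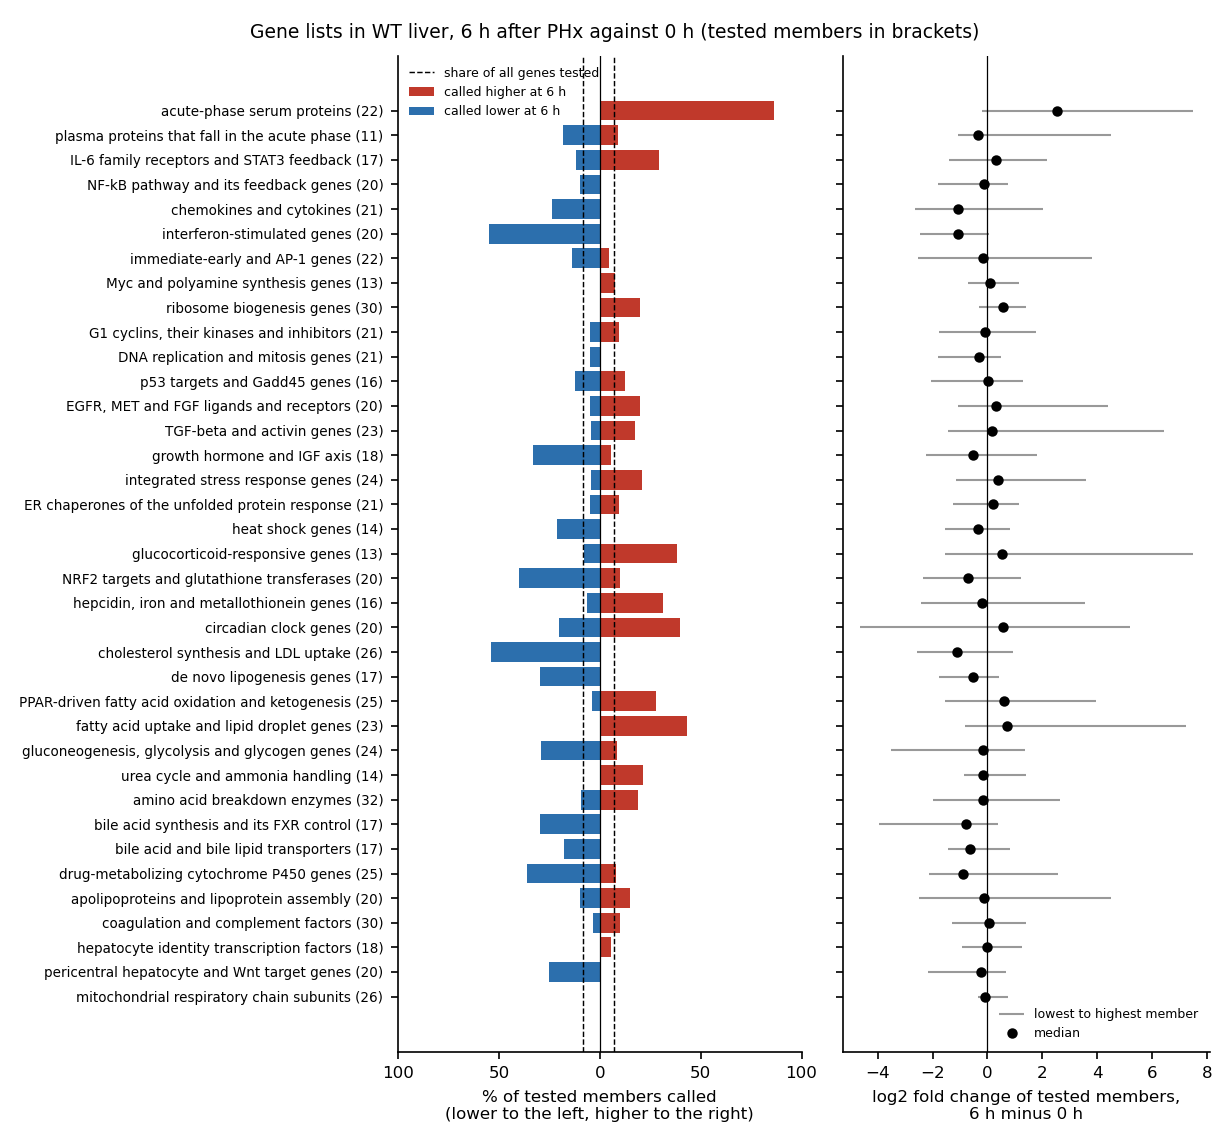
For 37 gene lists, the left panel gives the percentage of tested members called higher (red, to the right) or lower (blue, to the left) at 6 h, with dashed lines at the shares of all genes tested (7.17% and 8.4%). The right panel gives the median log2 fold change (point) and the lowest and highest member (line). Acute-phase proteins stand farthest to the right (19 of 22 higher) and interferon-stimulated and cholesterol synthesis genes farthest to the left (11 of 20 and 14 of 26 lower).

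Acute-phase serum proteins, which hepatocytes secrete under interleukin-6 and interleukin-1, rose most widely. Of 22 listed genes, all tested, 19 were higher and none was lower, with a median log2 fold change of 2.53, and for 18 of them the groups did not overlap. They took up 2.53% to 4.6% of all counts at 0 h (median 3.08%) and 12.8% to 19.9% at 6 h (median 16.1%). As single libraries were left out, 17 to 19 were called higher. Lbp, Cd14, Fgl1, Fgg, Orm1, Orm3 and Itih3 were also among them.

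Lcn2, an iron-scavenging lipocalin, was at 7.45 to 39.3 CPM at 0 h (median 17.5) and at 1912 to 4511 CPM at 6 h (median 3739). Every liver at 6 h was far above every liver at 0 h, by a ratio of medians of 213 and a log2 fold change of 7.49 ± 0.62 (SE; adjusted p = 1.46e-10). Saa1 and Saa2 encode the inducible serum amyloid A proteins of high-density lipoprotein. Saa1 went from 170 to 1770 CPM (median 387) to 8740 to 45929 CPM (median 20213), and Saa2 from 36.6 to 1224 CPM (median 151) to 10573 to 44304 CPM (median 25250). Neither gene overlapped between groups, and their log2 fold changes were 5.21 ± 0.57 and 6.33 ± 0.74 (adjusted p = 3.08e-08 and 8.93e-08). The highest 0 h value of both was in WT 0 h replicate 2, without which the changes were 5.89 and 7.48. Their transcripts are nearly identical, and so are those of the Orm genes, so that the division of reads among them is uncertain. Saa3, mainly a product of other cell types than hepatocytes, was at 3.28 to 43.8 CPM (median 4.86) and then at 65.6 to 1120 CPM (median 635). The groups stayed apart (5.72 ± 0.82, and 6.98 without WT 0 h replicate 2). Saa4, the constitutive family member, lay at a median of 658 CPM at 0 h and 651 CPM at 6 h, with a log2 fold change of -0.08 ± 0.36 and overlapping groups.

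Haptoglobin (Hp) binds free hemoglobin and hemopexin (Hpx) binds free heme. Hp was at 2263 to 4806 CPM (median 3057) at 0 h and at 12097 to 26189 CPM (median 19726) at 6 h. Hpx was at 2623 to 4989 CPM (median 3430) and then at 12711 to 24911 CPM (median 20034). Both were higher in all 6 livers, by 2.53 ± 0.21 and 2.48 ± 0.19 (adjusted p = 2.13e-10 and 2.88e-11). Orm2, an orosomucoid, rose by 5.12 ± 0.57, Serpina3n, an antichymotrypsin, by 3.67 ± 0.35, Apcs, the serum amyloid P component, by 3.51 ± 0.36, and Itih4, an inter-alpha-trypsin inhibitor chain, by 2.52 ± 0.18, each without overlap. Crp, the classic marker in human blood, is only a minor acute-phase gene in mice. It was at 314 to 475 CPM (median 350) at 0 h and at 194 to 561 CPM (median 246) at 6 h, and the groups overlapped (-0.19 ± 0.37, adjusted p = 0.717). A2m, a broad protease inhibitor outside the list, was at 0 to 0.562 CPM at 0 h and at 1.87 to 61.6 CPM at 6 h (median 12.5). Its groups did not overlap, and its fitted log2 fold change of 6.46 ± 1.06 rests on very few reads at 0 h and depends on the prior count. It was 7.17 without WT 0 h replicate 2 and 5.57 without WT 6 h replicate 1.

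The fibrinogen chains form the clot and are class II acute-phase genes, which answer to interleukin-6 through STAT3. Fga was at 4560 to 7087 CPM (median 6653) and rose to 14440 to 25911 CPM (median 23435), and Fgb went from 4340 to 7454 CPM (median 5786) to 20016 to 22195 CPM (median 21014). The groups did not overlap for either chain, with log2 fold changes of 1.83 ± 0.21 and 1.82 ± 0.20. Their promoters are shown because the pair rose together and both hold the STAT-type letters TTCNNNGAA. The promoters are from RefSeq on GRCm38.p6, 250 bases before to 50 after the annotated start, 5′ to 3′ on the gene's strand, with Fga at chr3:83025903-83026202 (plus strand) and Fgb at chr3:83049814-83050113 (minus strand). Capitals mark TTCNNNGAA in both and, in Fgb, also the AP-1 type letters TGANTCA.
Fga: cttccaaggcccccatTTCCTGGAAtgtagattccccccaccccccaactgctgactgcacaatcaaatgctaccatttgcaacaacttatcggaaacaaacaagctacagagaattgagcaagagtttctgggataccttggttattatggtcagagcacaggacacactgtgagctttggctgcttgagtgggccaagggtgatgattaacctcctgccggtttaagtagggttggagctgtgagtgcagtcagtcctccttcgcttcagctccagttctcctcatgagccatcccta
Fgb: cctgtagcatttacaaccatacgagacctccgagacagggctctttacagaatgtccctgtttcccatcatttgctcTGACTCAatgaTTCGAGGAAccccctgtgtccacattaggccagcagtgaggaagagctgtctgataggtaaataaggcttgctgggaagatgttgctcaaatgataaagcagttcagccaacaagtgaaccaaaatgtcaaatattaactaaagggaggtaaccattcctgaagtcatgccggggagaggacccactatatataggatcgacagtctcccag
In Fga the STAT-type letters begin 234 bases before the start. In Fgb they begin 162 bases before it, with the AP-1 type letters at 173 bases, and the matches do not overlap. TTCNNNGAA was searched on both strands and occurs in 8.3% of all 32851 promoters of this length, and TGANTCA in 7.81%. Of the acute-phase list, 17 genes matched the table with 18 promoters, of which 4 hold TTCNNNGAA (Apcs, Fga, Fgb and Itih4) and 5 hold TGANTCA. A match of letters is a description and not a measured binding site.

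**Figure D3:**
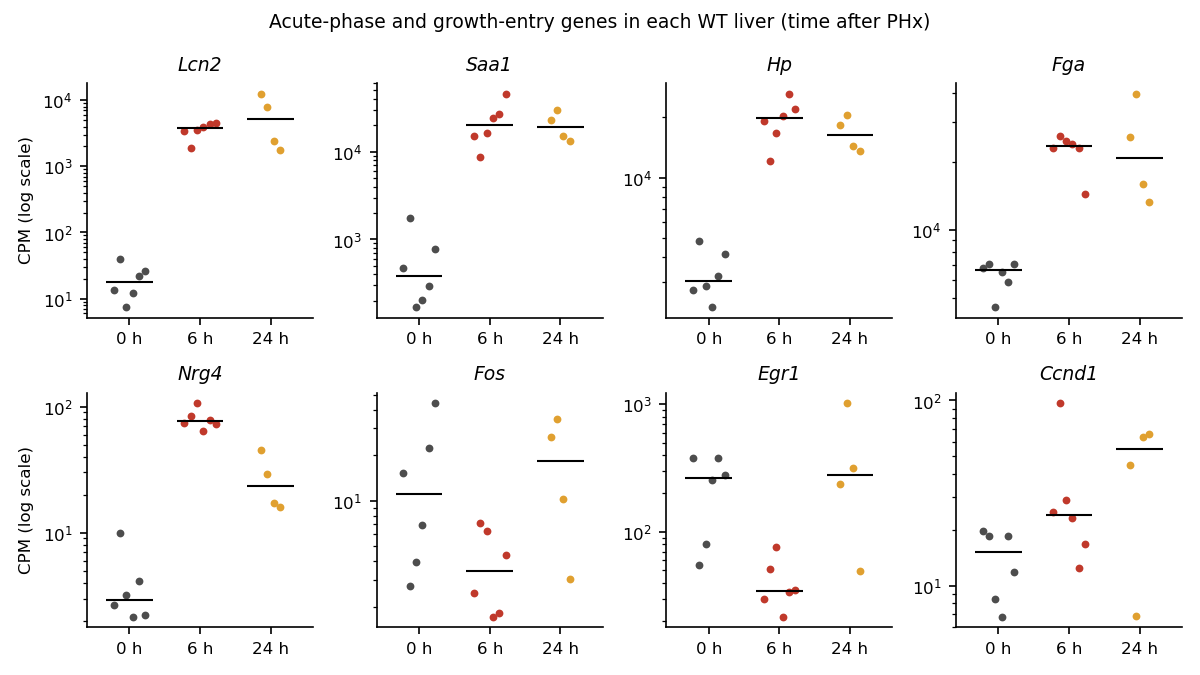
CPM (log axis) of 8 genes in each WT liver at 0 h (6), 6 h (6) and 24 h (4) after PHx, with a black line at the median. Lcn2, Saa1, Hp, Fga and Nrg4 do not overlap between 0 h and 6 h, Fos and Egr1 lie mostly lower at 6 h, and Ccnd1 at 6 h holds 1 liver far above the others at 96.4 CPM.

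Of 11 plasma proteins that are known to fall in the acute phase, 2 were lower (Ttr and Afm) and 1 higher (median -0.36), with 1 lower without WT 0 h replicate 4 or WT 6 h replicate 5 and none without WT 6 h replicate 4. Transthyretin (Ttr), the carrier of thyroid hormone and retinol-binding protein, was at 6136 to 7760 CPM (median 7166) at 0 h and at 1917 to 5026 CPM (median 3229) at 6 h. It was lower in every liver, by a log2 fold change of -1.08 ± 0.24 (adjusted p = 0.000578), which was -0.98 without WT 6 h replicate 4. Alb was at a median of 45164 CPM and then 31774 CPM, with overlapping groups, and was not called (-0.58 ± 0.21, adjusted p = 0.0262). Apoa4, an apolipoprotein of intestine and liver, was the member that rose, from 76.6 to 133 CPM (median 107) to 690 to 5107 CPM (median 1656; 4.49 ± 0.49).

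Genes of interleukin-6 family signaling and its feedback moved less. Of 17 tested genes for interleukin-6 family receptors and STAT3 feedback, 5 were higher (Il1rn, Il1r1, Cebpd, Osmr and Ptpn1) and 2 lower (Pim1 and Lifr, median 0.30). The higher count was 3 without WT 0 h replicate 3. Osmr, the receptor chain for oncostatin M, was at 2.52 to 10.8 CPM (median 3.47) and then at 10.4 to 15.3 CPM (median 13.1). Only WT 0 h replicate 2 reached the 6 h range (1.47 ± 0.33, adjusted p = 0.000659). Cebpd, a transcription factor that acts on acute-phase promoters, rose by 1.48 ± 0.34, and Lifr, the receptor chain for leukemia inhibitory factor, fell from a median of 367 CPM to 164 CPM (-1.19 ± 0.26), both without overlap. Stat3 itself was at 85 to 179 CPM (median 101) at 0 h and at 160 to 205 CPM (median 184) at 6 h, a log2 fold change of 0.72 ± 0.17 that did not reach the fold threshold. Socs3, its feedback inhibitor, was at 13.5 to 96.8 CPM and then at 66.2 to 93.6 CPM, and was not called (0.71 ± 0.52, adjusted p = 0.295).

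None of 20 genes of the NF-kB pathway was higher and 2 were lower (Relb and Tnfaip2), and none of 21 chemokines and cytokines was higher and 5 were lower (Tnf, Cxcl10, Cxcl13, Ccl24 and Ccl27a, median -1.06). For NF-kB genes the lower count is near the 8.4% of all genes called lower. Both lower counts rest on WT 0 h replicate 2, without which they were 0 and 1. The chemokine count was 3 without WT 0 h replicate 3 or WT 6 h replicate 5, and 1 chemokine or cytokine was higher without WT 6 h replicate 2. Tnf, the priming cytokine, was at 0.239 to 1.69 CPM at 0 h and at 0 to 0.179 CPM at 6 h, and the 2 groups did not overlap. Its call (-2.64 ± 0.79) was lost without WT 0 h replicate 2 (-1.71), as were those of Relb, a non-canonical NF-kB subunit (-1.80 ± 0.54, and -1.03 without that library), and of the chemokine Cxcl10 (-2.37 ± 0.75, and -1.77 without it). Nfkbia, the inhibitor that NF-kB induces, was at a median of 40 CPM and then 31.5 CPM with overlapping groups (-0.55 ± 0.28). Cxcl1, a neutrophil attractant, was at 41.4 to 442 CPM and then at 17.7 to 109 CPM and was not called (-1.22 ± 0.67).

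Interferon-stimulated genes form the antiviral program downstream of type I interferon. Of 20 tested, 11 were lower and none was higher, with a median of -1.08 and 10 without overlap, and 9 to 14 were lower when libraries were left out. Ifit3, an antiviral RNA-response protein, was at 8.02 to 26.3 CPM (median 11.2) and then at 1.91 to 3.92 CPM (median 3). It was lower in every liver at 6 h (-2.16 ± 0.31, adjusted p = 2.68e-06). Cmpk2, a mitochondrial nucleotide kinase of this program, changed by -2.46 ± 0.41, Ifit1 by -1.90 ± 0.43 and the transcription factor Irf1 by -1.55 ± 0.31, none with overlap. Gbp10, an interferon-induced guanylate-binding protein, was at 8.56 to 12.5 CPM (median 9.71) at 0 h and at 0 to 0.729 CPM at 6 h. The groups were far apart, and the fitted change of -5.43 ± 0.70 (-6.19 without WT 6 h replicate 1) rests on few reads at 6 h and on the division of reads among similar Gbp genes.

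Immediate-early genes are induced within the first hour of PHx, and of 22 tested 1 was higher (Fosl1) and 3 were lower (Egr1, Fos and Ier2, median -0.17), where 3 were higher without WT 0 h replicate 2. Egr1, a zinc-finger immediate-early factor, was at 55.3 to 380 CPM (median 265) at 0 h and at 21.6 to 76.6 CPM (median 34.2) at 6 h. The lowest 0 h liver lay inside the 6 h range (-2.53 ± 0.57, adjusted p = 0.000824). Fos, a subunit of AP-1, was at 2.76 to 43.9 CPM (median 11.1) and then at 1.72 to 7.18 CPM (median 3.42), overlapping widely. Its call (-1.99 ± 0.69, adjusted p = 0.0228) was lost without WT 0 h replicate 6 (-1.38). Jun was at a median of 22.4 CPM and then 39.4 CPM (0.55 ± 0.46) and Myc at 4.69 CPM and then 6.42 CPM (-0.72 ± 0.52), neither called. The sign for Myc is that of group means, which WT 0 h replicate 1 at 34.3 CPM raised, and without it the change was 0.13.

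Cells that grow in G1 make more ribosomes. Of 30 ribosome biogenesis genes, 6 were higher and none lower, with a median of 0.58. Rrp12, an export factor of ribosomal subunits, was at 4.04 to 6.8 CPM (median 5.63) and then at 11.5 to 17.1 CPM (median 15.7), and Heatr1, a factor of nucleolar rRNA processing, went from a median of 12.1 CPM to 32.7 CPM. Neither overlapped between groups (1.41 ± 0.20 and 1.33 ± 0.21). Odc1, the first enzyme of polyamine synthesis, was the 1 higher gene of 13 in its list, at 25.9 to 42 CPM (median 33.5) and then at 40.5 to 120 CPM (median 67.4). The ranges touched (1.16 ± 0.24, adjusted p = 0.000327) and without WT 6 h replicate 3 the change was 0.97 and not called.

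Of 21 G1 cyclins, kinases and inhibitors, 2 were higher and 1 lower, near the shares of all genes tested (7.17% higher, 8.4% lower). Ccnd1, cyclin D1, the marker of hepatocytes past the G1 restriction point, was at 6.78 to 19.8 CPM (median 15.2) at 0 h and at 12.5 to 96.4 CPM (median 24.1) at 6 h. The groups overlapped and WT 6 h replicate 2 lay far above the rest (1.27 ± 0.46, adjusted p = 0.0277). The call was lost without that library (0.59), without WT 0 h replicate 3, 4 or 6 (1.16, 1.13 and 1.22) and with the replicate number as a block (1.18). Ccne1, cyclin E1 of the G1 to S transition, was at 0.198 to 3.06 CPM (median 0.478) and then at 2.33 to 5.03 CPM (median 2.72), where only WT 0 h replicate 2 entered the 6 h range (1.76 ± 0.52, and 2.77 without it). E2f1, an S-phase transcription factor, fell from 1.72 to 3.42 CPM (median 3.09) to 0.359 to 1.46 CPM (median 0.849; -1.75 ± 0.41). Of DNA replication and mitosis genes, none of 21 tested was higher and 1 was lower (Birc5, -1.80 ± 0.49), with 2 lower without WT 6 h replicate 4 and 3 without WT 6 h replicate 6. Mki67, the proliferation marker, was at 1.03 to 2.34 CPM and then at 0.311 to 3.42 CPM, and its highest value was in that library (-0.47 ± 0.47, and -1.27 and called without it). Among 16 p53 targets and Gadd45 genes, 2 were higher (Gadd45g and Phlda3) and 2 lower (Bbc3 and Gadd45a), again near those shares. The higher count was 0 to 2 as single libraries were left out. Bbc3, which encodes the apoptosis inducer PUMA, fell from a median of 10.2 CPM to 2.67 CPM without overlap (-2.04 ± 0.27).

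Of 20 genes for EGFR, MET and FGF ligands and receptors, 4 were higher (Areg, Nrg4, Egf and Fgfr1) and 1 lower (Klb, not called without any 1 of WT 0 h replicates 1, 3 and 4 and WT 6 h replicates 2, 3, 5 and 6). Nrg4, a ligand of the EGFR relative ErbB4, was at 2.15 to 10 CPM (median 2.93) and then at 64.3 to 106 CPM (median 76.4). All 6 h livers were above all 0 h livers by a ratio of medians of 26.1 (4.28 ± 0.35, adjusted p = 1.16e-10). Hgf, the MET ligand, which stellate and endothelial cells make, was at a median of 1.95 CPM and then 1.92 CPM (0.13 ± 0.30), while Egf (1.24 ± 0.34) and Fgfr1 (1.18 ± 0.25) were higher with overlapping groups. Egf was at 0.198 to 0.54 CPM and then at 0.511 to 1.63 CPM. With 3 to 9 counts in a liver at 0 h, its call rests on few reads.

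TGF-beta and activins restrain hepatocyte growth, and of 23 tested genes of this family 4 were higher, with Inhbe, Fst and Acvr1b among them, and 1 was lower (Inhba). Inhbe, the hepatocyte-specific activin E chain, went from 5.87 to 34.4 CPM (median 16.6) to 75.3 to 178 CPM (median 99.2), and Inhba, the activin A chain, from 3.9 to 5.83 CPM (median 4.95) to 1.12 to 2.77 CPM (median 1.75). The 2 chains thus moved in opposite directions without overlap (2.55 ± 0.34 and -1.43 ± 0.32). Fst, the activin antagonist follistatin, rose by 1.83 ± 0.52 with overlap. Bmper, a secreted BMP-binding protein outside the list, was at 0 to 0.538 CPM and then at 10.6 to 34.4 CPM (median 18.5; 6.29 ± 0.59).

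Of 18 genes of the growth hormone and IGF axis, 6 were lower and 1 was higher (median -0.51). Ghr, the growth hormone receptor, was at 330 to 445 CPM (median 431) and then at 84.7 to 184 CPM (median 124), and its transcription factor Stat5b fell from a median of 50.2 CPM to 17.5 CPM. Both groups were fully apart (-1.62 ± 0.25 and -1.48 ± 0.15). Igfals, the acid-labile subunit that holds IGF-1 in plasma, changed by -2.23 ± 0.55 and the insulin receptor substrate Irs1 by -2.01 ± 0.31. Igf1 was not called (0.29 ± 0.20), while Igfbp1, an IGF-binding protein that is repressed by insulin, rose from 128 to 500 CPM (median 388) to 732 to 1896 CPM (median 1166; 1.81 ± 0.52).

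Hsd3b5 and Hsd3b2, related hydroxysteroid dehydrogenases, were among the genes with the largest falls. Hsd3b5, which in mice is expressed mainly in male liver, was at 157 to 240 CPM (median 211) at 0 h and at 0.245 to 3.5 CPM (median 0.895) at 6 h. The groups were apart by a ratio of medians of 236 (-7.52 ± 0.94, adjusted p = 2.88e-07), and the highest 6 h value was that of WT 6 h replicate 6, without which the change was -8.19. Hsd3b2 went from 51.1 to 68.8 CPM (median 62.1) to 0.368 to 2.12 CPM (median 1.79; -5.25 ± 0.72). The division of reads between these near-identical genes is uncertain. Elovl3, an elongase of very long chain fatty acids, fell from 596 to 1233 CPM (median 1114) to 40.1 to 93.9 CPM (median 48.5; -4.27 ± 0.65), and Keg1 from a median of 177 CPM to 10.8 CPM (-4.02 ± 0.80).

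Of 24 integrated stress response genes, the ATF4 program of amino acid shortage and ER stress, 5 were higher (Fgf21, Ddit4, Asns, Psat1 and Aldh18a1) and 1 lower (Cth, median 0.38). The higher count was 3 without any 1 of WT 0 h replicates 1, 3, 5 and 6 and WT 6 h replicates 3, 4 and 5. The lower count was 2 without WT 0 h replicate 2 or WT 6 h replicate 2 or 3, and 0 without both libraries that stood apart. Fgf21, a hepatokine of fasting and stress, was at 0.298 to 0.99 CPM (median 0.551) and then at 2.09 to 16.2 CPM (median 3.84). The groups did not overlap (3.59 ± 0.78, adjusted p = 0.000512). Ddit4, an inhibitor of mTORC1, rose from a median of 6.02 CPM to 50.9 CPM (2.80 ± 0.58), and Asns, asparagine synthetase, from 1.82 CPM to 19.6 CPM with overlap from WT 0 h replicate 2 alone (2.22 ± 0.65, and 3.41 without it). The promoter of Fgf21 is shown because this gene had the largest rise of the list and its promoter holds the letters TGATGNAA of ATF4 and C/EBP sites, on the reverse strand. It lies at chr7:45615441-45615740 (minus strand) on GRCm38.p6 (RefSeq), and capitals mark that match and the E-box letters CACGTG.
Fgf21: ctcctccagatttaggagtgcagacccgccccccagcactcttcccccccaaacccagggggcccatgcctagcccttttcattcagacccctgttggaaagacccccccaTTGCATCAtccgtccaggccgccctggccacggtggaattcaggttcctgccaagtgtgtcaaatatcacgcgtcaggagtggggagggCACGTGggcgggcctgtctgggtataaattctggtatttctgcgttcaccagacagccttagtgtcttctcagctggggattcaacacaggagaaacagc
The first match begins 139 bases and the E-box letters 50 bases before the start. TGATGNAA is in 3.97% of all promoters and in 7 of the 26 promoters of the 22 matched genes of this list.

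Of 21 genes for ER chaperones and the unfolded protein response, 2 were higher (Dnajb9 and Creld2) and 1 lower (Ern1), near the shares of all genes tested (7.17% higher, 8.4% lower). Each count was 1 or 2 as single libraries were left out. Hspa5, the main ER chaperone BiP, was at a median of 916 CPM and then 1368 CPM with overlap (0.46 ± 0.25). Of 14 heat shock genes 3 were lower (Hsph1, Hsp90ab1 and Dnajb1) and none higher, or 1 higher without WT 0 h replicate 4, with Hsph1 going from a median of 56.9 CPM to 16.9 CPM (-1.53 ± 0.43). Of 13 glucocorticoid-responsive genes 5 were higher (Lcn2, Pdk4, Fkbp5, Per1 and Sgk1) and 1 lower. Fkbp5, the glucocorticoid receptor's co-chaperone, was at 22 to 69.5 CPM (median 35.4) and then at 171 to 202 CPM (median 187; 2.27 ± 0.25). Tsc22d3, the glucocorticoid-induced leucine zipper, was at 32.3 to 206 CPM (median 121) and then at 34.1 to 52.4 CPM (median 42.6; -1.55 ± 0.34). These textbook targets of the same receptor moved in opposite directions, Tsc22d3 with overlap.

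Antioxidant and glutathione transferase genes, largely targets of NRF2, were lower for 8 of 20 and higher for 2 (Gstt3 and Srxn1, median -0.71), and the higher count was 0 without WT 0 h replicate 6 or WT 6 h replicate 3. Gclc, the catalytic subunit for glutathione synthesis, was at 155 to 223 CPM (median 206) and then at 31.1 to 56.9 CPM (median 39.6). All livers at 6 h were lower (-2.29 ± 0.29, adjusted p = 3.33e-07). Gsta3 fell from a median of 1354 CPM to 269 CPM (-2.18 ± 0.44) and Gsta2 from 24.1 CPM to 3.02 CPM (-2.36 ± 0.48, and -3.19 without WT 6 h replicate 2). Osgin1, an oxidative-stress-inducible growth inhibitor outside the list, was at 238 to 533 CPM (median 428) and then at 10.1 to 46.6 CPM (median 20; -4.18 ± 0.67).

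Of 16 hepcidin, iron and metallothionein genes, 5 were higher (Mt1, Mt2, Hamp, Slc39a14 and Id1) and 1 lower (Hamp2), or 2 lower without both libraries that stood apart. Hamp, hepcidin, the hormone that blocks iron export, was at 323 to 826 CPM (median 466) at 0 h and at 1279 to 4482 CPM (median 2845) at 6 h. Hamp2, its tandem copy, was at 3.21 to 26.3 CPM (median 6.85) and then at 0.429 to 4.9 CPM (median 1.65). The 2 genes moved in opposite directions, Hamp without overlap (2.54 ± 0.40, adjusted p = 1.02e-05) and Hamp2 with it (-2.42 ± 0.56, adjusted p = 0.000923). Their transcripts share near-identical reads, so that part of the reads given to the scarce copy is uncertain. Their promoters are shown because they differ at few bases although the genes moved apart. They are from RefSeq on GRCm38.p6, Hamp at chr7:30943980-30944279 (minus strand) and Hamp2 at chr7:30924132-30924431 (minus strand), with the STAT-type and AP-1 type letters in capitals.
Hamp: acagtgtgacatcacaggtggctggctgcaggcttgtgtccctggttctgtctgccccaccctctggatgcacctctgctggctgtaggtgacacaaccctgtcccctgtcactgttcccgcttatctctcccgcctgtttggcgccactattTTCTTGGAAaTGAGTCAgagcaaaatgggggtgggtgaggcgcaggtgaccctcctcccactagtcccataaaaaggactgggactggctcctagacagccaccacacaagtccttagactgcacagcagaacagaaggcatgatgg
Hamp2: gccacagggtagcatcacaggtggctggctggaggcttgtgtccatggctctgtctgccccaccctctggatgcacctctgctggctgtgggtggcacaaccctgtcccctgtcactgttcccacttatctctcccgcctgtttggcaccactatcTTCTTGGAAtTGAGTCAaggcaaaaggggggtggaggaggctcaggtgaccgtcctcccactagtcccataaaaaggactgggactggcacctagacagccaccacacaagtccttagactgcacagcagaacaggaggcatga
With Hamp2 shifted by 3 bases, 276 of 297 bases were identical (92.9%). Both hold TTCTTGGAA, at 97 and 94 bases before the start, and TGAGTCA, at 87 and 84 bases.

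Mt1 and Mt2, the metallothioneins that bind zinc, rose together. Mt1 was at 18.6 to 1207 CPM (median 232) and then at 2923 to 7528 CPM (median 3817), and Mt2 at 8.11 to 838 CPM (median 113) and then at 1770 to 3669 CPM (median 2412). Neither overlapped (3.57 ± 0.75 and 3.52 ± 0.77), and the highest 0 h values were again in WT 0 h replicate 2, without which the changes were 4.49 and 4.67. Slc39a14, the zinc and iron importer ZIP14, rose from a median of 167 CPM to 538 CPM (1.59 ± 0.30).

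Circadian clock genes form a feedback loop that runs in liver cells through the day. Of 20 tested, 8 were higher and 4 lower (4 and 3 when each library had to hold at least 10 counts of a gene), and for 14 the groups did not overlap. Bmal1 and Npas2 encode activators of the clock, and Per, Cry and Nr1d genes its repressors. Bmal1 was at 25.2 to 30.5 CPM (median 27.7) at 0 h and at 2.92 to 8.37 CPM (median 5.3) at 6 h. Npas2 was at 6.27 to 14.4 CPM (median 8.61) and then at 0.0778 to 0.837 CPM (median 0.257). Both were lower in all 6 livers (-2.31 ± 0.41 and -4.66 ± 0.46), whereas Clock, the partner of Bmal1, was not called (-0.33 ± 0.20). Cry1 fell from a median of 13.4 CPM to 5.25 CPM (-1.35 ± 0.22). Per1 was at 7.87 to 19.4 CPM (median 8.87) and then at 37.6 to 59 CPM (median 52), and Per3 rose from a median of 0.956 CPM to 4.16 CPM. Both stayed without overlap (2.17 ± 0.43 and 2.65 ± 0.57).

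Dbp and Tef, output factors of the clock that are driven through E-boxes, rose as well. Dbp was at 0.596 to 1.19 CPM (median 0.861) and then at 12.5 to 23.3 CPM (median 18.1; 4.39 ± 0.54), and Tef at 11.8 to 24.6 CPM (median 16) and then at 51.2 to 89.1 CPM (median 56.8; 1.89 ± 0.35). Ciart, a repressor of the clock, was at 0.3 to 1.01 CPM (median 0.512) and then at 16.4 to 40.1 CPM (median 18.9), higher in every liver by a ratio of medians of 37 (5.18 ± 0.70, adjusted p = 9.79e-07). Nr1d1, REV-ERB alpha, spread from 2.09 to 61.6 CPM at 0 h and from 32 to 67.6 CPM at 6 h. It was not called (1.21 ± 0.55, adjusted p = 0.0798) but was without WT 0 h replicate 3 (1.88). Since these genes cycle over the day and the hour of collection is not given, time of day and PHx cannot be told apart here.

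The promoter of Ciart is shown because this gene had the largest rise of the clock list and its promoter holds the E-box letters CACGTG at 3 places, in capitals below. It lies at chr3:95882179-95882478 (minus strand) on GRCm38.p6 (RefSeq).
Ciart: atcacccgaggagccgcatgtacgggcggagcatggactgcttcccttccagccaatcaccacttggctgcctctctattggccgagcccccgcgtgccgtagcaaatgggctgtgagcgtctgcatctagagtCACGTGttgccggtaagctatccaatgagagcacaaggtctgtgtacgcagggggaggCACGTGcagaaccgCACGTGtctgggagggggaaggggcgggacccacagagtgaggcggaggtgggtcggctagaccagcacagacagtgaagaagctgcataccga
The matches begin 116, 58 and 44 bases before the start. CACGTG is in 7.15% of all promoters and in 6 of the 20 promoters of the 16 matched clock genes, those of Bhlhe41, Ciart, Cry1, Per1 and Tef, of which Cry1 fell and the others rose.

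**Figure D4:**
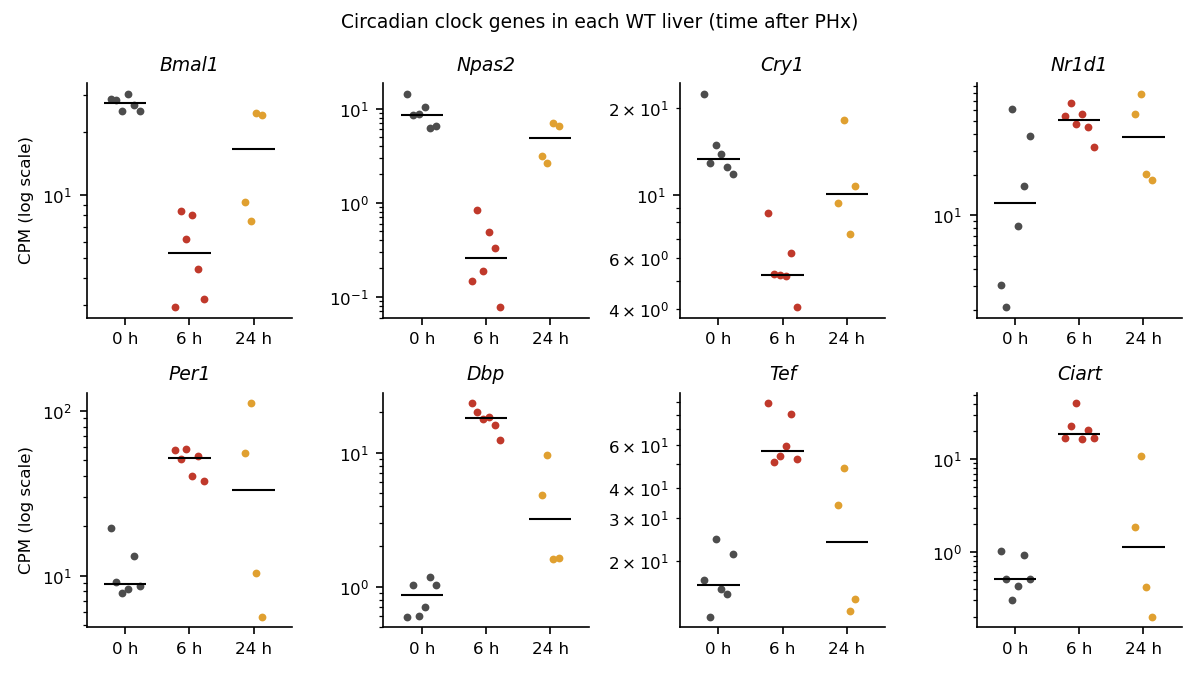
CPM (log axis) of 8 clock genes in each WT liver at 0 h (6), 6 h (6) and 24 h (4) after PHx, with a black line at the median. Bmal1, Npas2 and Cry1 were lower and Per1, Dbp, Tef and Ciart higher at 6 h without overlap with 0 h, while Nr1d1 overlapped, and the 24 h livers lie between or across both ranges.

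Of 26 genes for cholesterol synthesis and LDL uptake, which SREBP-2 drives, 14 were lower and none higher (median -1.10), with 1 higher without any 1 of WT 0 h replicates 4 and 5 and WT 6 h replicates 1 and 4. Sc5d, a late enzyme of the pathway, was at 305 to 438 CPM (median 370) and then at 45.5 to 95.1 CPM (median 60.5). It was lower in every liver (-2.56 ± 0.20, adjusted p = 1.16e-10), as were Hmgcs1, a cytosolic synthase early in the pathway (-2.14 ± 0.50), and Insig1, the sterol sensor (-2.04 ± 0.38). Of 17 genes for de novo lipogenesis, 5 were lower (Mid1ip1, Acly, Aacs, Fasn and Gpam) and none higher, and 3 were lower without WT 0 h replicate 1. Fasn, fatty acid synthase, fell from 108 to 229 CPM (median 135) to 43.4 to 106 CPM (median 64.1; -1.12 ± 0.35, and not called without WT 0 h replicate 1, at -0.97, or without both libraries that stood apart), and Mid1ip1, an activator of acetyl-CoA carboxylase, by a log2 fold change of -1.75 ± 0.26.

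Of 23 fatty acid uptake and lipid droplet genes, 10 were higher and none was lower (median 0.70). Cidec, a lipid droplet protein that enlarges droplets by fusion, was at 0.48 to 1.4 CPM (median 0.735) and then at 50.8 to 226 CPM (median 76). The groups were apart by a ratio of medians of 103 (7.22 ± 0.76, adjusted p = 1.36e-08). Plin2, the main droplet coat protein of hepatocytes, was at 298 to 469 CPM (median 358) and then at 1449 to 3220 CPM (median 2397; 2.69 ± 0.32). Plin4 rose by 2.76 ± 0.52 and G0s2, an inhibitor of triglyceride lipase, by 2.76 ± 0.73, the latter with overlap (3.43 without WT 0 h replicate 3).

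Fatty acid oxidation and ketogenesis genes, targets of PPAR alpha, were higher for 7 of 25 and lower for 1 (Acaa1b, median 0.60). Cpt1a, which admits fatty acids to mitochondria, was at 177 to 233 CPM (median 190) and then at 411 to 508 CPM (median 450; 1.22 ± 0.17). Cyp4a14, a fatty acid omega-hydroxylase, rose from a median of 30.5 CPM to 572 CPM (3.97 ± 0.87) and Pdk4, the kinase that shuts off pyruvate dehydrogenase, from 7.23 CPM to 41.3 CPM (2.43 ± 0.54). None of these overlapped, though reads of Cyp4a genes are shared among near-identical copies. Among 20 apolipoprotein and lipoprotein assembly genes 3 were higher (Apoa4, Apoc2 and Apoa5) and 2 lower, and Angptl8, an insulin-induced inhibitor of lipoprotein lipase, fell from a median of 33.6 CPM to 5 CPM (-2.49 ± 0.60).

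Of 24 genes of glucose and glycogen metabolism, 7 were lower and 2 higher. Ppp1r3c, a glycogen-targeting subunit of protein phosphatase 1, was at 20.4 to 109 CPM (median 62.3) and then at 5.54 to 11.2 CPM (median 6.48). It was lower at 6 h in every liver (-3.20 ± 0.70, adjusted p = 0.000588).

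The urea cycle clears ammonia, and of 14 of its genes 3 were higher (Slc25a15, Asl and Arg1) and none was lower, or 1 without both libraries that stood apart. Arg1, arginase, rose from a median of 1272 CPM to 2989 CPM (1.18 ± 0.22) and Asl, argininosuccinate lyase, from 524 CPM to 1519 CPM (1.38 ± 0.27). Cps1, which starts the cycle, was not called (0.66 ± 0.29, adjusted p = 0.0699). Of 32 amino acid breakdown enzymes, 6 were higher and 3 lower (Bhmt, Prodh2 and Kynu). Mat1a, which makes S-adenosylmethionine in adult liver, was at 1251 to 2062 CPM (median 1470) and then at 7026 to 10529 CPM (median 9906). Bhmt, which remakes methionine from homocysteine, was at 3108 to 5502 CPM (median 5111) and then at 857 to 1655 CPM (median 1117). These enzymes of the methionine cycle moved apart without overlap (2.58 ± 0.27 and -1.99 ± 0.50). Aass, the first enzyme of lysine breakdown, rose from a median of 277 CPM to 1546 CPM (2.64 ± 0.29).

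Of 17 genes for bile acid synthesis and its control by the bile acid receptor FXR, 5 were lower (Cyp7a1, Nr0b2, Akr1d1, Hsd3b7 and Klb) and none was higher (median -0.78). Cyp7a1, the rate-limiting enzyme of bile acid synthesis, was at 15.3 to 39.7 CPM (median 21.3) and then at 0.292 to 5.77 CPM (median 0.592). It was lower in every liver, with the highest 6 h value in WT 6 h replicate 4 (-3.94 ± 0.93, adjusted p = 0.0012, and -5.18 without it). Nr0b2, the repressor SHP that the bile acid receptor FXR induces and that lowers Cyp7a1, was lower too, from a median of 58 CPM to 9.85 CPM (-2.59 ± 0.55). Akr1d1, a 5-beta reductase of the pathway, fell from a median of 96.5 CPM to 19.2 CPM (-2.34 ± 0.25). Cyp8b1, which sets the share of cholic acid, was at 207 to 511 CPM and then at 51.6 to 273 CPM and was not called (-1.52 ± 0.95). Of 17 transporters of bile acids and bile lipids, 3 were lower (Abcb11, Slco1b2 and Abcc3), with 1 lower without WT 0 h replicate 1 or 3 or WT 6 h replicate 4, and 5 without both libraries that stood apart. Abcb11, the bile salt export pump, fell from 440 to 482 CPM (median 453) to 125 to 222 CPM (median 195; -1.31 ± 0.25). Aqp8, a canalicular water channel outside the lists, went from 48.5 to 108 CPM (median 78.5) to 1.47 to 5.49 CPM (median 3.27; -4.58 ± 0.37).

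Drug-metabolizing cytochrome P450 genes were lower for 9 of 25 and higher for 2 (median -0.89; 4 higher without WT 0 h replicate 2). Cyp1a2 was at 397 to 678 CPM (median 629) and then at 48.5 to 199 CPM (median 136), and fell in every liver (-2.11 ± 0.41). Cyp3a11, the main CYP3A of mouse liver, fell from 3023 to 5183 CPM (median 4173) to 541 to 3259 CPM (median 1897) with overlap (-1.27 ± 0.35), and Cyp2e1 was not called (-0.30 ± 0.35). Por, the reductase that passes electrons to these enzymes, rose from 158 to 252 CPM (median 192) to 618 to 1025 CPM (median 810; 2.06 ± 0.18), and Cyp2b10, a target of the xenobiotic receptor CAR, rose by 2.56 ± 0.64 with overlap (1.95 without WT 6 h replicate 2).

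Other abundant or strongly lowered genes were Car3, Selenbp2, Coq8a and Mreg. Car3, carbonic anhydrase 3, was at 1892 to 3852 CPM (median 2952) and then at 28.8 to 561 CPM (median 370; -3.18 ± 0.73), and Selenbp2, a selenium-binding protein, at 1634 to 3856 CPM (median 2815) and then at 223 to 1266 CPM (median 615; -2.10 ± 0.65). Coq8a, a kinase-like protein of coenzyme Q synthesis, fell from 281 to 402 CPM (median 357) to 8.35 to 16.8 CPM (median 12.1; -4.83 ± 0.54), and Mreg, melanoregulin, from a median of 35.6 CPM to 2.18 CPM (-3.85 ± 0.39). None of these 4 overlapped between groups. On the rising side, Syt12, a synaptotagmin, was at 0.431 to 1.23 CPM (median 0.754) and then at 80.5 to 180 CPM (median 103). It had the smallest adjusted p of the comparison (7.29 ± 0.35, adjusted p = 4.51e-16) and a ratio of medians of 136. Cgref1, a secreted calcium-binding protein, rose from 0.204 to 0.449 CPM (median 0.239) to 4.05 to 21.9 CPM (median 8.41; 5.43 ± 0.61).

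**Figure D5:**
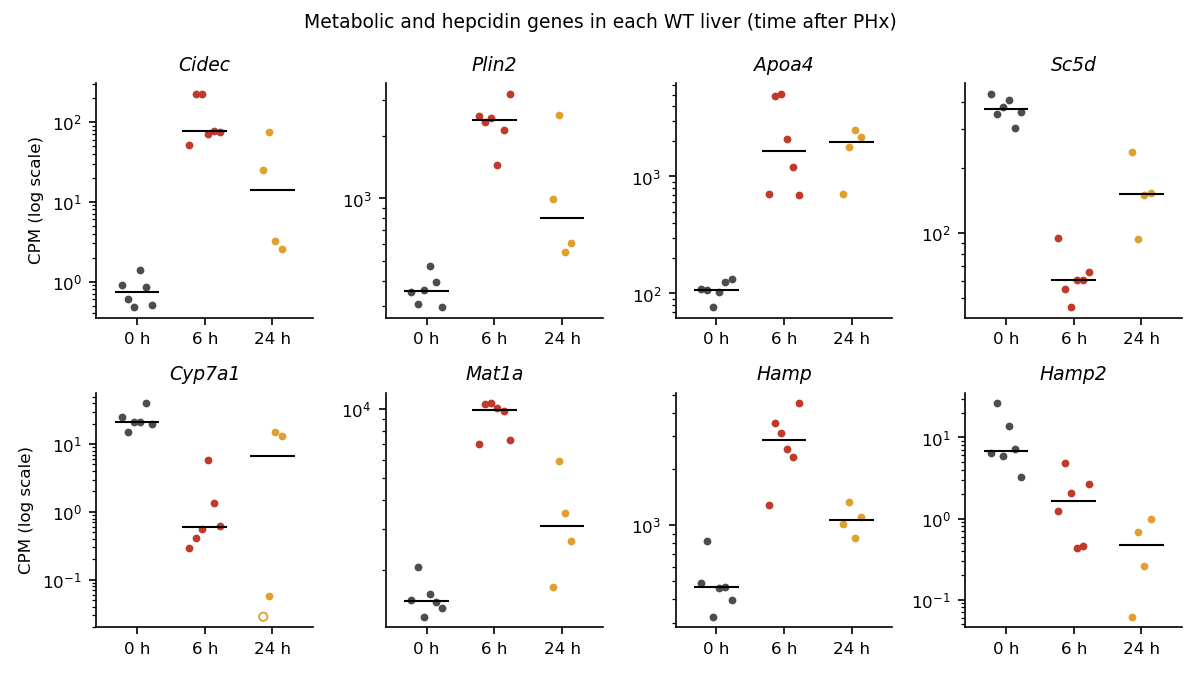
CPM (log axis) of 8 genes in each WT liver at 0 h (6), 6 h (6) and 24 h (4) after PHx, with a black line at the median and an open ring for a liver at 0, drawn at the bottom of the axis. Cidec, Plin2, Apoa4, Mat1a and Hamp were higher and Sc5d and Cyp7a1 lower at 6 h without overlap with 0 h, and Hamp2 was lower with overlap.

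Of 18 transcription factors that maintain hepatocyte identity 1 was called, and Hnf4a, the central one, was at 371 to 612 CPM and then at 478 to 639 CPM (0.16 ± 0.16). Prox1, the factor called, rose from a median of 35 CPM to 89.8 CPM (1.26 ± 0.21). The higher count was 2 without any 1 of WT 0 h replicates 1, 2 and 3 and WT 6 h replicates 3 and 4, without both libraries that stood apart, with the replicate number as a block and in a fit of the groups compared alone, and 1 factor was lower without WT 0 h replicate 5 or WT 6 h replicate 1. Of 20 pericentral genes, which Wnt signals from the central vein maintain, 5 were lower (Notum, Cyp1a2, Avpr1a, Aldh1a1 and Lgr5). Notum, a Wnt inhibitor that is itself a Wnt target, fell from a median of 27.9 CPM to 6.3 CPM (-2.17 ± 0.36), whereas Glul, glutamine synthetase of the same zone, was at 711 CPM and then 835 CPM (0.26 ± 0.38). Of 26 respiratory chain subunits none was called (median -0.07), and of 30 coagulation and complement factors 3 were higher, with C3 and Pros1 among them, and 1 was lower (Serpind1).

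Markers of other liver cells were measured beside these results, where 7.17% of all genes tested were higher and 8.4% lower. Of 13 tested neutrophil markers 3 were higher (Lcn2, Il1r2 and Mmp8), where Lcn2 is also made by hepatocytes, and the count was 1 without any 1 of WT 0 h replicates 2, 3, 5 and 6 and WT 6 h replicates 1, 3, 4 and 6. The summed level of the other 17 listed markers was 10.1 to 30.5 CPM (median 22.6) at 0 h and 12.1 to 66.5 CPM (median 23.8) at 6 h. The 5 listed markers that were not tested, Ly6g, Camp, Ltf, Mpo and Elane, had too few counts to pass the filter. They were at or below 0.184 CPM in every liver, a low level that follows from the filter. S100a9, an abundant neutrophil protein, was at 1.86 to 9.26 CPM and then at 1.85 to 32.5 CPM (0.65 ± 0.76), and WT 6 h replicate 6 held the highest value, without which the change was -0.31. Of 10 monocyte markers 3 were higher (Chil3, Vcan and Itgam), their sum being 9.13 to 11.1 CPM at 0 h and 9.48 to 24 CPM at 6 h, and Itgam, an integrin of myeloid cells, rose from a median of 0.718 CPM to 2.99 CPM (1.95 ± 0.43).

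Of 16 Kupffer cell markers 1 was higher (Id3) and none lower. The lower count was 3 without both libraries that stood apart and 1 without any 1 of WT 0 h replicates 2, 4 and 6 and WT 6 h replicates 5 and 6, and the higher count was 0 without WT 0 h replicate 1, 4 or 5. Of 18 sinusoidal endothelial markers 1 was higher (Lyve1, not called without WT 6 h replicate 3) and 1 lower (Dnase1l3). Clec4f, the Kupffer cell lectin, was at 22.1 to 81.5 CPM and then at 23.4 to 61.5 CPM (-0.46 ± 0.29), and Stab2, the endothelial scavenger receptor, at 24.7 to 30.6 CPM and then at 22.4 to 28.7 CPM (-0.17 ± 0.20). Dnase1l3, a DNase of endothelium and macrophages, fell from a median of 45.7 CPM to 14.8 CPM (-1.60 ± 0.38). Stellate cell and matrix genes were higher for 6 of 19 (3 without WT 6 h replicate 4, and 8 without both libraries that stood apart), with Ccn2, connective tissue growth factor, from a median of 6.7 CPM to 24 CPM (1.74 ± 0.34). Their sum was 342 to 503 CPM at 0 h and 370 to 715 CPM at 6 h. Lymphocyte markers were scarce, with 4 of 14 tested and 2 lower (Cd4 and Cd79a). Cd4, of helper T cells, was at 1.99 to 5.61 CPM and then at 0.179 to 0.914 CPM (-2.88 ± 0.42), and the other 13 markers summed to 3.64 to 5.57 CPM and then to 0.729 to 2.49 CPM. Cholangiocyte markers were higher for 2 of 9 (Cldn4 and Tspan8, 0 to 3 as single libraries were left out), MHC class II genes lower for 1 of 9 (Cd74, a count of 0 without WT 6 h replicate 1 or 6 or both libraries that stood apart, and 3 without WT 6 h replicate 3), red blood cell genes called for 0 of 5 and pancreas acinar genes lower for 1 (Cela1) of 2 tested of 8 listed, with Pnlip and Cpb1 at 0 in all 12 livers. The part of these cells in the results above was not tested.

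The same genes were followed to 24 h, where 665 genes were higher than at 6 h (4.44%) and 408 lower (2.72%), together 7.16%. The 4 livers at 24 h were unlike each other. On the first component of all 34 libraries replicates 1 and 2 lay at 86.2 and 95.9, beyond the 6 h livers (11.5 to 32.5), and replicates 3 and 4 at -8.0 and -17.6, toward the 0 h livers (-76.8 to -51.0). Called genes numbered 642 without replicate 1, 1330 without replicate 4 and 2797 without replicates 3 and 4. Both comparisons use the same 6 h livers, so the values are given side by side only.

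At 24 h Saa1 was at 13411 to 29929 CPM (-0.17 ± 0.53, 24 h minus 6 h), Hp at 13631 to 20605 CPM (-0.21 ± 0.23) and Fga at 13242 to 39921 CPM (0.08 ± 0.23). None of these acute-phase genes was called against 6 h. Egr1 was higher than at 6 h (3.29 ± 0.62), with 49.2 to 1015 CPM, and so was Fos (2.21 ± 0.74), with 3.04 to 34.4 CPM. For both genes the lowest 24 h liver lay inside the 6 h range. Ccnd1 was at 6.86 to 66.2 CPM with a median of 54.4 CPM and was not called against 6 h (0.42 ± 0.49).

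Among the clock genes, Npas2 (3.74 ± 0.48) and Bmal1 (1.56 ± 0.44) were higher at 24 h than at 6 h, and Dbp (-2.03 ± 0.54), Tef (-1.25 ± 0.39) and Ciart (-2.75 ± 0.69) were lower. The corresponding changes from 0 h to 6 h stand above. The 24 h livers were split for Bmal1, at 9.28 and 7.54 CPM in replicates 1 and 2 and at 24.7 and 24 CPM in replicates 3 and 4. The first pair lay near the 6 h range (2.92 to 8.37 CPM) and the second near the 0 h range (25.2 to 30.5 CPM). Calls against 24 h, here and below, compare means over these unlike livers and do not describe each liver. Differences of 24 h minus 6 h were called for the lipid genes Cidec (-2.19 ± 0.66), Cpt1a (-1.39 ± 0.19), Sc5d (1.31 ± 0.21), Hmgcs1 (2.79 ± 0.55) and Insig1 (1.70 ± 0.40). They were also called for Hamp (-1.42 ± 0.45), Syt12 (-1.63 ± 0.29), Mat1a (-1.41 ± 0.30), Nrg4 (-1.57 ± 0.35), Coq8a (2.70 ± 0.52), Aqp8 (2.65 ± 0.37), Mreg (2.19 ± 0.41) and Osgin1 (3.73 ± 0.69). Car3 (-2.96 ± 0.86), Selenbp2 (-2.68 ± 0.78) and Cyp1a2 (-1.75 ± 0.47) were lower at 24 h than at 6 h, after lower values at 6 h than at 0 h. A pair of differences that uses the 6 h livers on both sides is not independent of the first comparison.

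Livers of SIRT1intKO mice, 6 at 0 h and 5 at 6 h, served to test whether the change differs with genotype. With the difference of the changes as an interaction, 0 of 14980 genes were called (0%) by edgeR, 456 had an unadjusted p under 0.05 (3.04%), and DESeq2 called 2, Gm45837 and Rpl35a-ps3, which were named after their values were seen. Their DESeq2 log2 estimates of 23.87 and 44.31 are too extreme to be read as sizes of a change, and edgeR called neither. In SIRT1intKO livers Lcn2 went from 4.97 to 46 CPM to 2573 to 4523 CPM, and its change differed from that in WT by 0.14 ± 0.68. For Hp the difference was -0.11 ± 0.29, for Syt12 0.09 ± 0.46 and for Coq8a 0.06 ± 0.68. Of the 138 genes given with values, 7 had a difference beyond 1.5 in either direction, which were Osgin1 (3.09 ± 0.87), Cxcl10 (2.42 ± 1.05), Nr0b2 (2.35 ± 0.75), Egr1 (1.95 ± 0.79), Npas2 (-1.68 ± 0.80), Relb (1.57 ± 0.77) and Gclc (1.53 ± 0.40), with an adjusted p of 1 for each. Osgin1 was at 13.2 to 601 CPM in the 5 SIRT1intKO livers at 6 h (median 24.8), against 10.1 to 46.6 CPM in the 6 WT livers.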

How the data were processed

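Stranded mRNA libraries were sequenced as 100-base paired-end reads and processed by the authors with nf-core/rnaseq (STAR, Salmon; GRCm39 per the labels). The authors deposited expected counts per gene, without normalization for depth or length. Salmon divides reads that near-identical genes share, so such genes are uncertain. Of 35 value columns, 1 matched no library and was not used. Of the values, 4.97% were not whole and were rounded. Deposited symbols lack the letter x, and 1316 were restored through identifiers (GENCODE vM21).

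With edgeR 4.0.16 (R 4.3.3), libraries were scaled by TMM, genes were kept by filterByExpr (minimum count 10; 14980 of 78298 genes) and a quasi-likelihood model with 1 mean for each group was fitted over all 34 libraries. The common biological coefficient of variation was 0.302. SE is the log2 fold change over the square root of F. Genes were called at a Benjamini-Hochberg adjusted p under 0.05 and a log2 fold change beyond 1 in either direction. The study used the same cutoffs with DESeq2 (1.42.0 here) and shrank its log2 fold changes. No such shrinkage step was applied here, so the fold threshold is not strictly the same. Principal components used log2 CPM with a prior count of 2. The floor of 3 counts in a library was 0.163 to 0.201 CPM, and values near it rest on few reads. The libraries are separate livers by the labels. The p-values set a change against the spread between livers of a group, which was estimated over all 34 libraries. The fit was tested on simulated data.

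The members, gene lists and motifs were chosen with earlier results of these data known. Genes were named by rule: the 10 largest rises and falls in fold (mean of at least 5 CPM, groups not overlapping, no predicted genes), the 5 largest rises and falls in mean CPM, and of each list 2 anchors and the highest and lowest called members. Of the 138 genes given with values in the comparison, 91 were named by this rule. The other 47, and all members named without values, were chosen after their values were seen. Some called or listed genes are not reported here. Feature coordinates are not given because the annotation used here is of GRCm38, and the promoters are those of RefSeq on that build. The alternatives were other tools, scalings, filters, thresholds, the replicate number as a block and leaving out libraries. Same-numbered livers did not deviate together (correlations -0.15 to 0.16, 1 of 6 over 0.1), so the numbers were not taken as pairs.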

Additional observations from a re-analysis of the deposited data

Results flagged for a closer look

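Of 276 groups of 6 values (138 genes at 0 h and at 6 h), 43 held a highest or lowest liver set apart from its neighbor by more of the group's range than Dixon's critical value. For independent values of a normal distribution, chance gives about 1 in 20 groups. The values here are CPM without a log, of genes measured in the same livers, so that rate is no exact baseline for the 43. WT 0 h replicate 2 accounts for 21 of them and WT 6 h replicate 6 for 8.

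WT 0 h replicate 2 was the highest 0 h liver for acute-phase and cytokine genes, at Saa2 1224 CPM (the next 330 CPM), Saa3 43.8 CPM (7.31), Crp 475 CPM (361), Apcs 177 CPM (80.4), Stat3 179 CPM (103) and Osmr 10.8 CPM (4.74). It also led NF-kB and interferon genes, at Nfkbia 81.9 CPM (47.8), Relb 13.1 CPM (3.61), Tnf 1.69 CPM (0.3), Cxcl10 12.7 CPM (4.55) and Irf1 81 CPM (38.2). Among growth, stress and metal genes it was highest for Heatr1 at 19.8 CPM (13.5), Ccne1 at 3.06 CPM (0.7), Nrg4 at 10 CPM (4.16), Fst at 4.85 CPM (2.4), Asns at 16.2 CPM (3.4), Hamp at 826 CPM (490), Mt1 at 1207 CPM (367) and Mt2 at 838 CPM (225). It was the lowest 0 h liver for Elovl3 at 596 CPM (1015) and Cyp8b1 at 207 CPM (429). The cause of these values was not tested. Saa2, Saa3, Apcs, Osmr, Heatr1, Ccne1, Nrg4, Fst, Asns, Hamp, Mt1 and Mt2 were called higher at 6 h, and Relb, Tnf, Cxcl10 and Irf1 were called lower.

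WT 6 h replicate 6 was the lowest 6 h liver for Fga at 14440 CPM (the next 22902 CPM). It was the highest for Ifit1 at 4.67 CPM (2.63), Mki67 at 3.42 CPM (0.784), Igf1 at 952 CPM (673), Mt1 at 7528 CPM (4437), Elovl3 at 93.9 CPM (50.4), Hsd3b5 at 3.5 CPM (1.17) and S100a9 at 32.5 CPM (6.99). Its TMM factor was 0.7399, where the other livers of the 2 groups lay between 0.9022 and 1.065. A lower factor raises every CPM of a library, and its part in these values was not tested.

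Single values elsewhere were those of WT 6 h replicate 1, highest for A2m at 61.6 CPM (17) and Ccne1 at 5.03 CPM (3.13), of WT 6 h replicate 2, highest for Ccnd1 at 96.4 CPM (29) and Gsta2 at 14.9 CPM (5.67), and of WT 6 h replicate 3, highest for Inhbe at 178 CPM (102) and Ciart at 40.1 CPM (23.1). WT 6 h replicate 4 was highest for Ppp1r3c at 11.2 CPM (7), Cyp7a1 at 5.77 CPM (1.37) and Itgam at 4.23 CPM (3.05). At 0 h, replicate 1 was highest for Cry1 at 22.5 CPM (14.9) and Keg1 at 244 CPM (182), replicate 4 lowest for E2f1 at 1.72 CPM (2.97), and replicate 6 lowest for Gclc at 155 CPM (202) and highest for Cgref1 at 0.449 CPM (0.264).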

How the results depend on the processing

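The 2332 genes called at 6 h against 0 h (1074 higher, 1258 lower) numbered 2185 to 2363 as each library was left out (969 to 1129 higher, 1200 to 1313 lower), 2367 without WT 0 h replicate 2 and WT 6 h replicate 6, an alternative added after seeing the data, and 2411 with DESeq2. They fell to 1183 (539 higher, 644 lower) when each library had to hold at least 10 counts of a gene, which left 10701 genes to test, rose to 5604 (2835 and 2769) with no fold threshold, and fell to 749 (371 and 378) when tested against an absolute log2 fold change of 1 (glmTreat). Of 24 h against 6 h, the 1073 calls became 570, 2469 and 80 under those 3 settings, and 404 when the other groups were left out of the fit, 642 to 1330 as each library was left out, and 2797 without WT 24 h replicates 3 and 4. The interaction had 0 calls throughout the edgeR fits, 0 to 0 as each library was left out, and 2 with DESeq2. With the replicate number as a block, the calls were 2290 at 6 h against 0 h, 0 for the interaction and 771 at 24 h against 6 h, 2 of 6 livers at 0 h correlated best with their own number, and of the genes given with values Ccnd1 lost its call (1.18). The other causes of these moves were not tested.

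Of 115 called genes given with values, 8 lost their call under at least 1 alternative other than a changed threshold and 107 did not, but 28 of the 115 were removed when each library had to hold at least 10 counts and have no value there. The fold of 19 moved by over 1.5 times as libraries were left out. With glmTreat, the changed threshold given above, 42 of the 115 lost their call. Lower counts then fell from 11 to 2 for interferon-stimulated genes and from 14 to 3 for cholesterol genes. They fell from 5 to 0 for chemokines and cytokines and from 3 to 0 for heat shock genes. The higher count of ribosome biogenesis genes fell from 6 to 0, and other lists lost calls as well. Among the genes given with values, signs turned only for uncalled ones. Saa4 (-0.08) became 0.03, 0.01 and 0.02 without WT 0 h replicate 1, WT 0 h replicate 2 and WT 6 h replicate 2. Myc (-0.72) became 0.13 without WT 0 h replicate 1. S100a9 (0.65) became -0.31 without WT 6 h replicate 6 and -0.21 without both doubted libraries. Over all alternatives other than a changed threshold, the ranges were -0.22 to 0.03 for Saa4, -0.94 to 0.13 for Myc and -0.31 to 0.84 for S100a9. Genes under 1 CPM rest on few reads, and differences among them may not be detectable at this depth.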
